A study of Mus musculus with 3 samples.

Results

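MiR-210 was examined through both of its mature products, mmu-miR-210-3p and mmu-miR-210-5p, the strands cut from the right and left side of 1 hairpin precursor. They were chosen by name, and they are 2 of the 1908 mature microRNAs listed in the count files. The reads came from 3 small RNA libraries of liver from male C57BL/6J mice aged 8 to 10 weeks, an inbred strain, with 1 library per group. In the sham group (Sham) the abdomen was opened without occlusion and the liver was taken 90 min later. In the warm ischemia group (WI) the vessels and bile duct serving the left and median lobes were clamped for 90 min. In the ischemia-reperfusion group (IR) the same clamp of 90 min was followed by 120 min of restored flow. The clamp left the other lobes supplied with blood, and the lobes from which RNA was taken were not stated. Sham livers had no wait to match the reperfusion, and the number of mice behind a library was not stated. All mice were fasted and anaesthetised. The IR liver was thus sampled at a later time from surgery than the other two, and reperfusion and this extra time cannot be told apart.

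MicroRNAs are short RNAs that guide silencing proteins to messenger RNAs, mainly through pairing of their seed, bases 2 to 8. MiR-210 is the best known microRNA of the hypoxia response. Its gene is transcribed under hypoxia-inducible factor (HIF), and its targets include Iscu, a scaffold protein for iron-sulfur clusters in mitochondria. Of its 2 strands, the 3p strand is usually the one loaded into the silencing complex. The comparisons ask whether a partly clamped liver, or one to which flow was returned, held another level of mature miR-210 than a sham-operated liver.

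The mature sequences are shown because the seed decides which transcripts each arm can pair with. They are those of RefSeq (GRCm38.p6), written 5′ to 3′ with the seed in capitals.
mmu-miR-210-3p: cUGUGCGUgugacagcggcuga
mmu-miR-210-5p: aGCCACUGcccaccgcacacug
The arms do not share a seed. Among the 1679 mature mouse microRNAs in that table, of which 1603 have a name listed in the files, 0 others carried either seed. The remaining names in the files had no sequence to compare.

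The hairpin shows how both arms lie on 1 transcript, with the mature arms in capitals.
Mir210 hairpin: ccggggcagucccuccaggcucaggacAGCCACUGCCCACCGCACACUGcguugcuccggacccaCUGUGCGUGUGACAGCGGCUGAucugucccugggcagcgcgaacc
In the NCBIM37 (mm9) assembly, the build that the study's methods name for small RNA, these 110 bases read identically on the minus strand of chromosome 7, from 148407283 to 148407392. The 3p arm occupied positions 148407306 to 148407327 and the 5p arm positions 148407344 to 148407365. The GENCODE annotation placed 0 other genes over the hairpin. Its neighbours were Rassf7, 2725 bases away on one side, and Phrf1, 7290 bases away on the other, both on the opposite strand. In the fold predicted by RNAfold, 16 of the 22 bases of the 3p arm paired with the 5p arm.

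The libraries held between 3784539 (IR) and 5064014 (WI) microRNA reads, with 3844133 in Sham. They were scaled with TMM (trimmed mean of M-values) and are given as counts per 1000000 scaled reads (CPM). A level of 3 reads, the smallest taken as told from none, corresponded to 0.758, 0.617 and 0.785 CPM in the Sham, WI and IR libraries. The liver label was checked on miR-122-5p, the microRNA that defines hepatocytes, which stood at 15960, 18999 and 15364 CPM in the same order. It was not the most abundant microRNA, as miR-192-5p stood at 243175, 258042 and 236770 CPM.

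MiR-210-3p was a minor species of liver and its level differed little among the 3 libraries. The Sham, WI and IR libraries held 135, 198 and 165 reads of it. The Sham level was 34.1 CPM (95% exact Poisson interval 28.6 to 40.4), the WI level 40.7 (35.2 to 46.8) and the IR level 43.1 (36.8 to 50.3). Sham was thus lowest and IR highest, but all 3 intervals overlapped, so no neighbours in this order were separated by counting error. By rank it was number 182 of 653 microRNAs detected in Sham, 175 of 682 in WI and 177 of 679 in IR. These intervals cover counting error alone, and variation between animals was not measured.

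MiR-210-5p, the opposite strand, was close to the limit of detection. It was read 12 times from Sham, 22 times from WI and 9 times from IR. The Sham level was 3.03 CPM (95% exact Poisson interval 1.57 to 5.29), the WI level 4.52 (2.83 to 6.85) and the IR level 2.35 (1.08 to 4.47). WI was the highest and IR the lowest, again with 3 overlapping intervals. Every lower bound lay above the 3-read level.

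**Figure D1:**
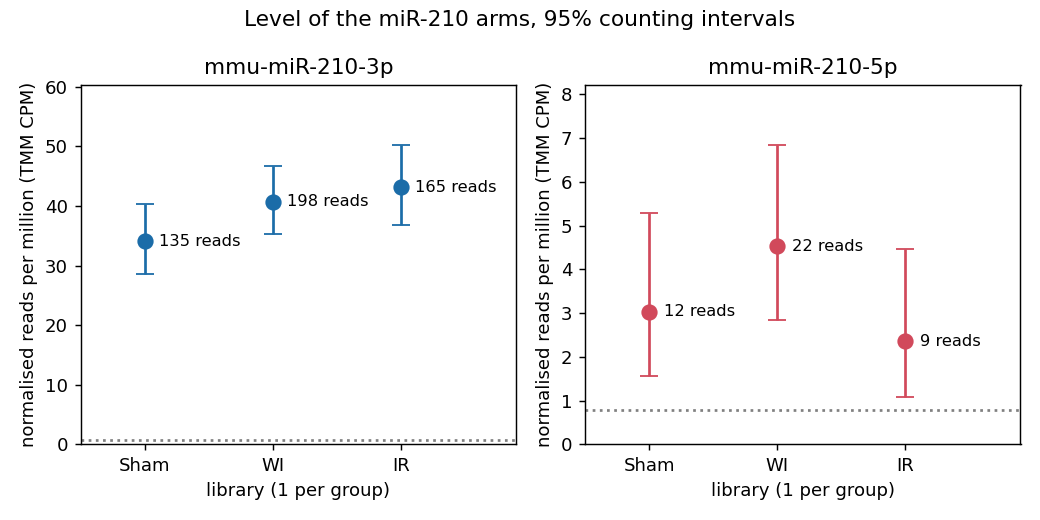
TMM-scaled level in CPM (vertical axis) of miR-210-3p on the left and miR-210-5p on the right in the Sham, WI and IR libraries, with 95% exact Poisson intervals as bars, read counts beside the points and the highest of the 3-read levels as a dotted line. The 3p arm lies between 34.1 and 43.1 CPM and the 5p arm between 2.35 and 4.52 CPM, and the intervals overlap within each arm.

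The first comparison asks about ischemia alone. MiR-210-3p was 1.19-fold as high in WI as in Sham, with an exact 95% interval of the ratio from 0.954 to 1.497 that included equality. The log2 fold change, taken on log2(CPM + 0.1), was 0.25 (SE 0.16 from counting) and Fisher's exact test gave p = 0.123 (Benjamini-Hochberg adjusted 0.537). Calls follow the thresholds of the study, a fold above 1.5 with p under 0.01 before adjustment, and miR-210-3p was not called. The study took the mapped reads of a sample as its total, where microRNA reads were used here. The shares called here are not those of the study, and the part of this choice in the difference was not tested. Across all microRNAs tested in this comparison, 1.92% were called. From 135 reads in Sham, equal levels would have given 166 reads in WI, and a rise would have been called from 250 reads, a 1.51-fold change. For this arm the fold threshold, and not the depth, set that point. The 198 reads found lay between equality and that point.

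MiR-210-5p gave a ratio of 1.49 in the same comparison, with a wide interval from 0.707 to 3.31. On the log2 scale the change was 0.56 (SE 0.50), with p = 0.303 by Fisher's exact test, and it was not called. A rise of this arm would have been called only from 35 reads in WI, a 2.33-fold change, so a difference below that size was not detectable at this depth. The 2 arms together had 147 reads in Sham and 220 in WI, a ratio of 1.22 (0.984 to 1.51), whose Fisher's exact p of 0.0662 also missed the threshold.

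The second comparison asks what the return of blood added to ischemia. MiR-210-3p was nearly level between WI and IR, with a ratio of 1.06 (exact 95% interval 0.857 to 1.31). The log2 difference of 0.08 (SE 0.15) gave p = 0.597 by Fisher's exact test. The interval of the ratio lay within the 1.5-fold threshold on both sides, so between these 2 libraries a change of that size was outside counting error under TMM scaling. In this comparison 9.25% of all tested microRNAs were called. MiR-210-5p went from 22 to 9 reads, a ratio of 0.520 (0.211 to 1.18). This was the widest shift of either arm in any comparison, a log2 fold change of -0.91 (SE 0.55), but Fisher's exact p was 0.105 and a fall would have been called only at 4 reads or fewer. For both arms together the ratio was 1.01 (0.820 to 1.23).

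The third comparison sets the whole procedure against the sham operation. With TMM scaling, miR-210-3p came nearest to a difference here. The ratio of IR to Sham was 1.27, and its exact 95% interval, 1.002 to 1.60, began just above equality. The log2 difference was 0.34 with an SE of 0.17. By Fisher's exact test p was 0.0433, above the threshold of 0.01, and 0.216 after Benjamini-Hochberg adjustment over all 774 microRNAs tested. The arm was not called in a comparison in which 7.11% of all tested microRNAs were. A call would have needed 196 reads in IR, where 165 were found. MiR-210-5p had a ratio of 0.777 (0.289 to 2.01) and a log2 difference of -0.35 (SE 0.61), with p = 0.665 by Fisher's exact test. For both arms together the ratio was 1.23 (0.978 to 1.54).

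**Figure D2:**
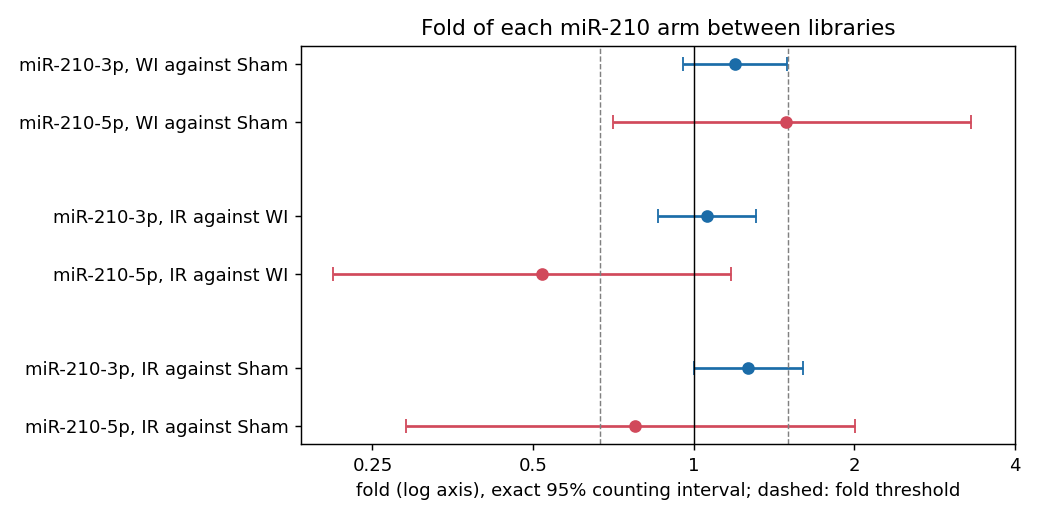
Ratio of TMM-scaled levels between libraries (horizontal axis, logarithmic) for miR-210-3p in blue and miR-210-5p in red in each comparison, with exact 95% counting intervals and the 1.5-fold threshold dashed. The 3p ratios are 1.19, 1.06 and 1.27, the 5p ratios are 1.49, 0.520 and 0.777, and the interval that does not include 1 is that of the 3p arm in IR against Sham.

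Thus 0 of the 2 arms was called in any of the 3 comparisons. Each p compares a pair of libraries and not a pair of conditions, so a real change of miR-210 in the animals can be neither shown nor denied from them. IR against Sham and WI against Sham use the same Sham library, so the higher values of miR-210-3p in both rest on the same 135 reads.

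The changes of miR-210-3p were not among the largest of these libraries. Of the 246 microRNAs with at least 100 reads over WI and Sham, 49 had a higher log2 fold change than miR-210-3p and 196 a lower one. In IR against Sham 41 of 237 lay above it and 195 below. In IR against WI 84 of 243 lay above and 158 below. The lower to upper quartiles of these log2 fold changes ran from -0.11 to 0.21 in WI against Sham and from -0.17 to 0.21 in IR against Sham, so miR-210-3p, at 0.25 and 0.34, stood a little above the upper quartile in both. In IR against WI it lay between the quartiles, which were -0.22 and 0.17.

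**Figure D3:**
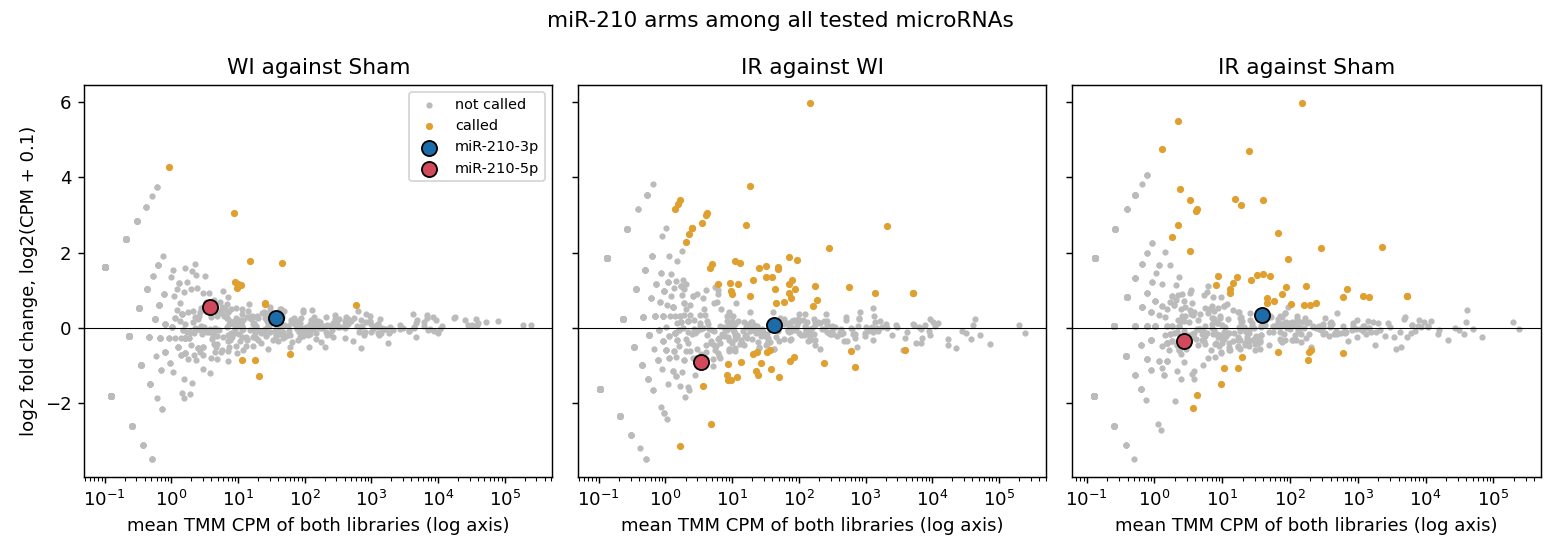
Log2 fold change on log2(CPM + 0.1) against the mean level of both libraries (logarithmic) for every tested microRNA in the 3 comparisons, called ones in orange, miR-210-3p in blue and miR-210-5p in red. MiR-210-3p lies close to 0 at about the same level in each panel, with log2 fold changes of 0.25, 0.08 and 0.34, and miR-210-5p lies where low counts spread the values widely.

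The log2 fold change of miR-210-3p depended on how the libraries were scaled. With the totals of reads aligned to the genome in place of TMM, the WI library exceeded Sham by 0.41 on the log2 scale (p = 0.0115 by Fisher's exact test) while IR against WI turned to -0.24 (p = 0.116 by the same exact test). Relative to miR-122-5p, the hepatocyte microRNA, the value for WI against Sham was 0.0041 and that for IR against WI 0.39 (p = 0.0112 by Fisher's exact test). A further scaling used the summed reads of 4 microRNAs often used as reference (miR-191-5p, miR-103-3p, miR-16-5p and let-7a-5p). Relative to that sum, the values were 0.26 from Sham to WI, 0.0083 from WI to IR and 0.27 from Sham to IR. Of these reference microRNAs, miR-103-3p is also in the list below of those reported as raised by hypoxia. MiR-16-5p is in the list of those reported as lowered, so this reference is not independent of the hypoxia lists. So WI stood above IR with aligned totals, almost level with Sham when set against miR-122-5p, and level with IR when set against the reference microRNAs. Sham was the lowest library for miR-210-3p under each of these scalings, and no scaling gave a call.

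**Figure D4:**
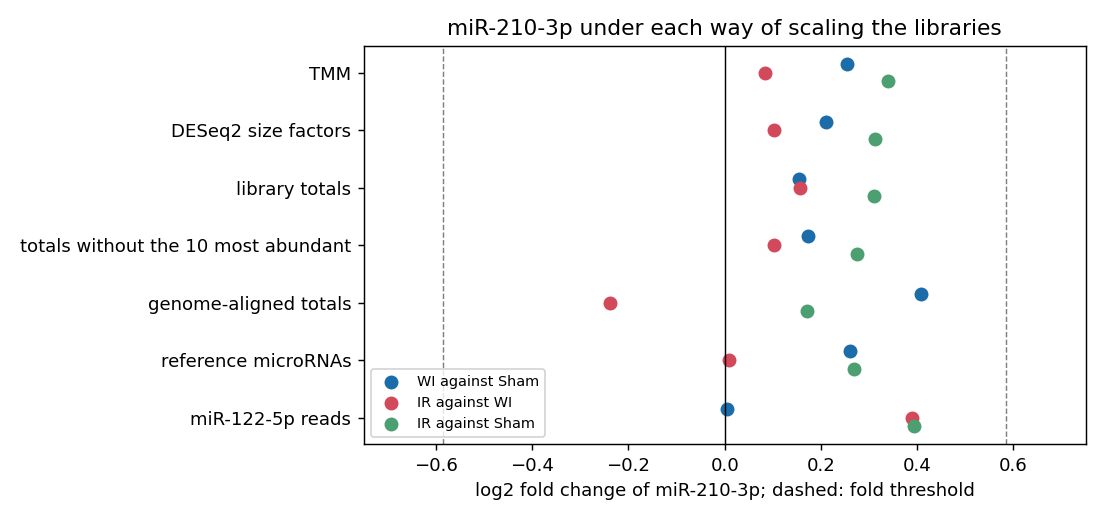
Log2 fold change of miR-210-3p (horizontal axis) under TMM and 6 other scalings (rows), with WI against Sham in blue, IR against WI in red, IR against Sham in green and the 1.5-fold threshold dashed. Every point lies inside the threshold, and IR against WI runs from -0.24 with genome-aligned totals to 0.39 relative to miR-122-5p.

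The balance between the arms needs no scaling, because both are read in the same library. Of the miR-210 reads, the 5p arm held 8.16% in Sham (12 of 147, 95% Wilson interval 4.73 to 13.7). Its share was 10.0% for WI (22 of 220, interval 6.70 to 14.7) and 5.17% for IR (9 of 174, interval 2.74 to 9.54). The 3p arm was therefore the major product in every library, with 11.3, 9.0 and 18.3 reads per 5p read in the 3 libraries. The IR share minus the WI share was -4.83 percentage points, which was not beyond counting error (Fisher's exact p = 0.0908, 0.272 after Benjamini-Hochberg adjustment over 3 comparisons). The odds ratio was 0.492 with a 95% interval from 0.194 to 1.15. With the libraries thinned to equal depth the difference was -2.33 points (Fisher's exact p = 0.499). The thinning was a random draw that was not repeated. The other pairs gave Fisher's exact p = 0.587 for WI against Sham and 0.366 for IR against Sham.

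Over the 3 libraries the 5p share was 7.95%. Of 160 hairpins with both arms listed and at least 100 reads, 77 had the 3p arm as the major product, as miR-210 did, and 83 the 5p arm. The minor arm of miR-210 held a larger share of its reads than that of 115 of these hairpins and a smaller one than that of 44, and the median minor share was 1.82%. Counts of arms from several hairpins of 1 family can overlap, which the single miR-210 hairpin avoids.

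The microRNAs whose pair of log2 fold changes against Sham lay nearest to that of miR-210-3p were named by Euclidean distance over the 3 libraries, among 278 others with at least 100 reads. They were let-7i-3p, miR-378a-5p, miR-30c-5p, miR-23a-3p and miR-128-3p, at distances of 0.021 to 0.085 on the log2 scale. MiR-378a-5p, the next nearest after let-7i-3p, stood at 63.4, 76.5 and 78.2 CPM in the Sham, WI and IR libraries. It lay above the counting interval of miR-210-3p in each. MiR-128-3p stood at 38.1, 47.9 and 46.8 CPM, within the counting intervals of miR-210-3p in each library apart from WI. The distances are smaller than the counting error of miR-210-3p itself, so the order among these 5 is not fixed by the data.

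MiR-210 is one of a larger set of microRNAs that have been linked to low oxygen in cultured cells and tissues. A list of 22 mature microRNAs reported as raised by hypoxia, with both miR-210 arms in it, was all present in the files. In WI against Sham 0 of the 22 were called, with a median log2 fold change of 0.08 beside 0.05 over all tested microRNAs. In IR against WI 0 of the 22 were called, with a median of 0.02 beside -0.01. These small medians moved with the scaling, as did the medians over all tested microRNAs. Under genome-aligned totals the WI against Sham median was 0.23 beside 0.20 over all. That of IR against WI was -0.30 beside -0.32, with 21 of the 22 values below 0. Library totals gave -0.02 beside -0.06 in WI against Sham. In IR against Sham 1 was called and was higher in IR, with a median over the list of -0.01 beside 0.04. Under genome-aligned totals that median was -0.17 beside -0.09. Over all tested microRNAs the shares called in these comparisons were 1.92%, 9.25% and 7.11%, and a list of 22 is too short to set a count of 0 or 1 apart from them.

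The called microRNA was miR-23b-3p, which is made from a cluster with miR-27b and miR-24. Its reads numbered 3323, 5124 and 5797 in the Sham, WI and IR libraries, or 839, 1053 and 1516 CPM. From Sham to IR the log2 fold change was 0.85 (SE 0.03), with p = 2.64e-169 by Fisher's exact test, which covers counting error only. This call was lost at a fold above 2 and in edgeR's exact test when animals were taken to vary by 0.2 or 0.4 (coefficient of variation). The log2 fold change was 0.33 from Sham to WI and 0.53 from WI to IR, and neither reached the fold threshold.

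The most abundant members of the list carried far more reads than miR-210. MiR-21a-5p, a microRNA raised in many kinds of tissue injury, was at 34311, 40711 and 48089 CPM in the same order. From Sham to WI its log2 fold change of 0.25 matched that of miR-210-3p in size, but with an SE of 0.0051 in place of 0.16. From Sham to IR it reached 0.49, also below the fold threshold. MiR-192-5p, the most abundant microRNA of these livers, and miR-26a-5p had log2 fold changes between -0.13 and 0.09 in all 3 comparisons. MiR-155-5p, an inflammation-linked microRNA and one of the sparser members, had 80, 81 and 55 reads.

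A second list held 6 microRNAs reported as lowered by hypoxia, and 0 were called in any comparison. Its median log2 fold change in WI against Sham was -0.09 with all 6 values below 0 under TMM, beside 0.05 over all tested microRNAs. Under genome-aligned totals it was 0.05 with all 6 above 0, beside 0.20 over all. In IR against WI the median was 0.15 beside -0.01, and in IR against Sham it was 0.03 beside 0.04. Genome-aligned totals turned these list medians to -0.18 and -0.14, with 5 of the 6 values below 0 in each. The medians over all tested microRNAs were then -0.32 and -0.09. MiR-16-5p, the most abundant of them and a member of the miR-15 family, which restrains the cell cycle, stood at 10598, 9708 and 10898 CPM in the Sham, WI and IR libraries. MiR-199a-5p, which is reported to target HIF-1 alpha, had 215, 198 and 217 CPM, and miR-15b-5p had 113, 109 and 140. The arms of miR-210 and these 6 microRNAs all stayed within the 1.5-fold range or, for the sparse 5p arm and miR-20b-5p, within counting error.

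**Figure D5:**
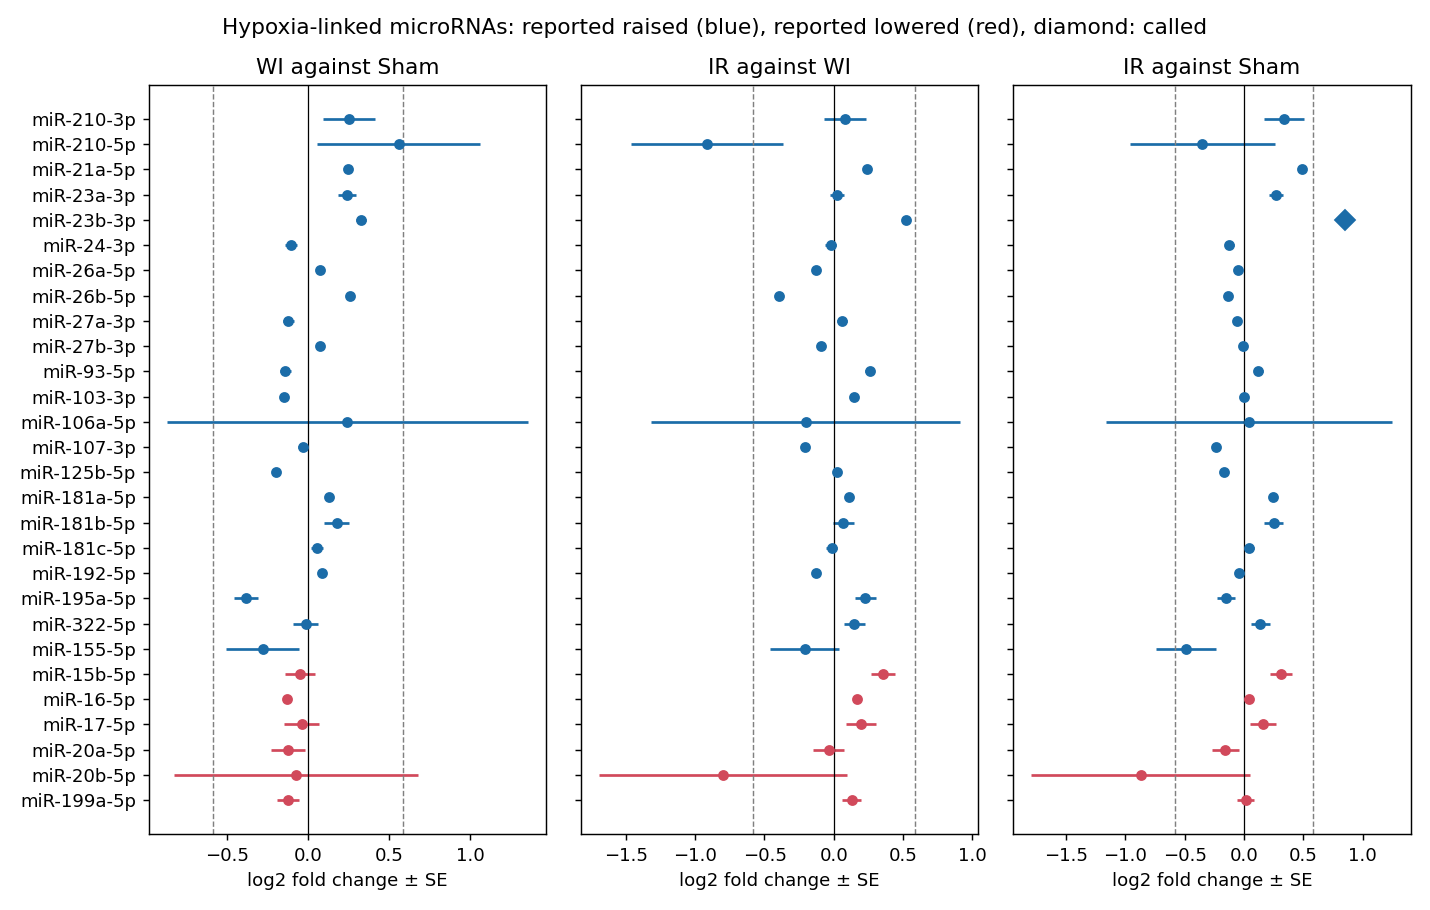
Log2 fold change on log2(CPM + 0.1) with counting SE (horizontal axes) of the 22 microRNAs reported as raised by hypoxia in blue and the 6 reported as lowered in red, in the 3 comparisons, with the 1.5-fold threshold dashed. The only diamond, which marks a call, is miR-23b-3p in IR against Sham at 0.85, and miR-210-3p sits at 0.25, 0.08 and 0.34.

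Markers of the cells a liver sample can hold were summed in each library, since in bulk tissue fewer cells of a type and less RNA per cell cannot be told apart. The 3 hepatocyte microRNAs summed to 266266, 283950 and 258895 CPM in the Sham, WI and IR libraries. Of this, miR-192-5p made up 243175, 258042 and 236770 CPM, and miR-194-5p did not share the higher WI level. The 4 leukocyte microRNAs summed to 3074, 3037 and 2792 CPM, of which miR-142-5p made up 2735, 2672 and 2342. Within that list miR-223-3p, a myeloid microRNA, was highest in IR, at 110, 109 and 236 CPM. The 2 endothelial ones summed to 19267, 22783 and 17568. Most of this was miR-126a-5p, while miR-126a-3p was nearly level at 2956, 2951 and 2985. The 4 stromal ones summed to 39455, 42874 and 35008, of which miR-143-3p made up 38597, 42013 and 34215. All members of these 4 lists were detected in every library. None of their 13 members had the order of miR-210-3p (Sham, then WI, then IR), and 3 of them, miR-223-3p, miR-126a-3p and miR-214-3p, were highest in IR as it was. The 2 red cell microRNAs (miR-451a and miR-144-3p) were at 1117, 1066 and 1961 CPM, and the 3 muscle ones at 6.82, 23.8 and 75.1. Nearly all of the muscle sum was miR-133a-3p, at 6.82, 23.6 and 73.2 CPM, while miR-1a-3p had 0, 1 and 6 reads and miR-206-3p 0, 0 and 1. Both sums were highest in IR, as miR-210-3p was. Of their members, miR-144-3p (79.8, 107 and 123 CPM), miR-133a-3p and miR-1a-3p did have the order of miR-210-3p. The step of miR-210-3p from WI to IR lay within counting error and reversed under genome-aligned totals. This order therefore cannot set cell types apart. The part of any of these cells in the level of miR-210-3p was not tested.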

How the data were processed

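Small RNA was sequenced from liver in 1 library per group (Sham, WI, IR), with groups taken from sample titles. The deposited values are raw read counts per mature microRNA. The authors trimmed and length-selected reads, aligned them with Bowtie 0.12.7, classified the alignments by RNA type (HTSeq) and obtained mature microRNA counts from miRDeep2. The study's methods name mm9 for small RNA and the submitters' processing notes name mm10. PCR copies were counted as reads, and intervals cover counting error only.

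Here, counts were scaled with TMM factors of edgeR 4.0.16 in R 4.3.3 (1.03, 0.961 and 1.01 for Sham, WI and IR). Fisher's exact test (two-sided, scipy 1.17.1) was run on each microRNA read at least once in the 2 libraries compared, which were 782 for WI against Sham, 789 for IR against WI and 774 for IR against Sham. Adjusted p-values are over these. Ratio intervals are exact conditional ones. Without replicates, a quasi-likelihood fit in edgeR was not possible. The procedure was run on simulated counts with counting error only and planted changes well above the fold threshold. It was scored only on microRNAs above a read minimum. That run did not test smaller changes, sparse microRNAs or variation between animals. Pairing was predicted with RNAfold 2.7.2.

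The microRNAs named are both arms, the called and the 3 most abundant members of each hypoxia list, the 5 nearest by distance, miR-122-5p and the list members given as sums. MiR-155-5p, miR-26b-5p, miR-20b-5p and the single markers beyond miR-122-5p were named after their values were seen. The members and lists were chosen with earlier results of these data known. The leukocyte markers miR-142-3p and miR-142-5p are listed in newer releases as miR-142a. Alternatives changed scaling (including DESeq2 1.42.0 size factors), pseudocount, read minimum, thresholds, depth and test.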

Additional observations from a re-analysis of the deposited data

How the results depend on the processing

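Under 16 alternatives for each arm and comparison, 0 of 96 recomputed values were called and 1 changed sign, that of miR-210-3p in IR against WI, which became -0.24 with genome-aligned totals. Alternatives that changed only the read minimum, a threshold or the test kept the log2 fold change, so they could not change its sign. A fold above 2 is stricter and could not add a call. Changing the pseudocount or the read minimum left p as it was, and each edgeR setting gave these arms a higher p. These could not add a call either. At p under 0.05 the 1.5-fold threshold still applied, and miR-210-3p stayed below it. The absence of calls thus rests mainly on the changes of scaling and depth. The values of miR-210-3p ranged from 0.0041 to 0.41 in WI against Sham, from -0.24 to 0.39 in IR against WI and from 0.17 to 0.39 in IR against Sham. Those of miR-210-5p ranged from 0.22 to 0.69, from -1.17 to -0.47 and from -0.48 to -0.25. Genome-aligned totals moved the median of all microRNAs to 0.20, -0.32 and -0.09 in that order, scaling to miR-122-5p moved it to -0.20, 0.29 and 0.08, and the other scalings kept it within 0.09 of 0. After the random thinning to equal depth, which was not repeated, the 5p share differed by -0.14 percentage points in WI against Sham, where it had been 1.84.

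The number of all microRNAs called in WI against Sham, 15, became 25 with genome-aligned totals, 33 at p under 0.05 and 9 at a fold above 2. In IR against WI, 73 became 111 with genome-aligned totals. The 55 called in IR against Sham became 35 at a fold above 2. When edgeR's exact test was given a coefficient of variation of 0.2 for the animals, 4, 33 and 24 were called, and 1, 6 and 10 with 0.4. Of the hypoxia-raised list, 1 was called in IR against WI with library totals (miR-23b-3p, higher) and 1 with genome-aligned totals (miR-26b-5p, lower), the latter scaling also giving 2 in IR against Sham (miR-23b-3p and miR-155-5p). At a fold above 2, and at a coefficient of variation of 0.2 or 0.4, 0 were called there. The cause of these shifts was not tested.

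No paired analysis was possible because each group has 1 library, and for the same reason no library was left out. Of the 5 microRNAs nearest to miR-210-3p, 5 were kept with library totals and 4 with a minimum of 500 reads. Depth limits the 5p arm most, with 9 to 22 reads.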

Other observations

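The core of the sequence that HIF binds, ACGTG, and the variant GCGTG were searched on both strands in the 300 bases directly upstream of the Mir210 hairpin (mm9, chromosome 7, 148407393 to 148407692). Neither was found in this window, of which 60.0% was G or C. Of the same windows before 1577 annotated mouse microRNA hairpins, 14.8% held ACGTG and 17.4% held GCGTG. The start of the primary transcript of miR-210 is not marked in the annotation used, so this window says nothing of sites further away.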
